A study of Mus musculus with 16 samples.

Results

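The 31 genes described here encode the enzymes of the citric acid cycle together with the proteins that bring pyruvate, glutamate and other carbon into it, and they were measured by RNA sequencing in enteroids, epithelial cultures that were grown from the crypts of mouse jejunum and then differentiated. They were chosen by name from the gene count table, where all 31 were found among 54532 genes, and all 31 passed the filter on low counts in each of the 5 comparisons. By role they fell into 8 genes of pyruvate entry, 7 from citrate to 2-oxoglutarate, 8 from 2-oxoglutarate to oxaloacetate, 5 of glutamate and transamination, and 3 mitochondrial carriers. The 4 succinate dehydrogenase subunits, which also belong to the cycle, were not in the set and are given beside it.

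The 16 cultures formed 4 groups of 4. MYO5BΔIEC enteroids were made from adult Vil1-CreERT2;Myo5b flox/flox animals. Those named MYO5B(G519R) were made from Vil1-CreERT2;Myo5b flox/G519R animals, which carry the G519R allele beside the floxed one. In both, Cre was induced in culture by 1 µM 4-OH-tamoxifen for 24 h, after which the medium was changed to a differentiation medium with Noggin and R-spondin conditioned media and without Wnt ligands and EGF. The Vil1 promoter confines this Cre to intestinal epithelium, and myosin Vb (MYO5B) is the motor protein whose loss causes microvillus inclusion disease. MYO5BΔIEC enteroids received vehicle (PBS) or Compound-1 at 100 nM, an agonist of the lysophosphatidic acid receptor LPAR5, for 2 days. The sample records call the third genotype only control and give it no treatment, the study describes Vil1-CreERT2;Myo5b flox/flox cultures given the ethanol vehicle in place of 4-OH-tamoxifen while also calling the controls of this experiment healthy littermates, and the records name 4-OH-tamoxifen for the other cultures alone. A direct effect of 4-OH-tamoxifen and the loss of MYO5B therefore cannot be told apart in any comparison with control.

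Pyruvate made by glycolysis crosses the inner mitochondrial membrane through the MPC1/MPC2 carrier and is then either oxidized to acetyl-CoA by the pyruvate dehydrogenase complex or carboxylated to oxaloacetate by pyruvate carboxylase. Citrate synthase joins acetyl-CoA to oxaloacetate, and successive oxidations return the carbon to oxaloacetate while NADH and FADH2 are made. In small intestinal epithelium glutamine is a main fuel, and it enters the cycle as glutamate and then 2-oxoglutarate through glutamate dehydrogenase and the transaminases.

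Each culture gave 27804968 to 40101729 counted reads, so that a count of 0 would allow at most 0.0733 to 0.106 CPM, which covers counting error only. CPM are counts divided by a library size that was scaled by the TMM method of edgeR, and levels list cultures 1 to 4 of a group in that order. Control culture 1 stood apart from the other controls. Its log2 levels correlated with those of the other controls at a mean r of 0.935 across 13541 genes, compared with 0.968 to 0.972 for controls 2 to 4 and 0.960 to 0.985 for the remaining cultures. Its summed level of 10 enterocyte markers was 3412 CPM, against 12657 to 15967 CPM in controls 2 to 4 and 6174 to 12860 CPM in the other 3 groups. The rank correlation of level with gene length was 0.0982 in control culture 1, -0.397 to -0.360 in controls 2 to 4 and -0.163 to 0.337 in the other groups. Mitochondrially encoded genes took 6.41% of its counts, 9.07% to 10.4% in the other controls and 3.79% to 6.63% in the remaining 12 cultures. The number of the 31 members called against control is therefore also given without control culture 1, and the part of these values in the members' differences was not tested. Epithelial markers were high in all cultures, with a summed level of 7 genes of 6453 to 8271 CPM in control and 9141 to 16816 CPM in the other groups, whereas 6 fibroblast markers summed to at most 0.941 CPM, with Col3a1, Dcn and Lum at 0 in every culture, and 6 immune markers to at most 9.86 CPM. Myo5b itself was at 183 ± 27.9 CPM (SD, n = 4) in control, 129 ± 29.5 CPM in MYO5BΔIEC and 154 ± 16.3 CPM in MYO5B(G519R) enteroids, neither difference being called (adjusted p = 0.0503 and 0.109). In Compound-1-treated MYO5BΔIEC enteroids Myo5b was called lower than in control, with a log2 fold change of -0.77 and groups that did not overlap. Because transcripts lacking the floxed exons and transcripts with the point mutation are still counted, these levels do not measure the protein.

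In MYO5BΔIEC compared with control enteroids, 13 of the 31 genes were lower and 5 were higher, and in MYO5B(G519R) compared with control enteroids 12 were lower and 5 higher. A gene was called when edgeR's quasi-likelihood test gave an adjusted p under 0.05. All adjusted p values below are from that test, and the error after ± in a log2 fold change is its standard error from that fit to 8 cultures. Over all genes tested, 13.8% were called lower and 13.5% higher in MYO5BΔIEC, and 13.7% and 13.1% in MYO5B(G519R). Members were thus called lower about 3 times as often as all genes in both models, and called higher about as often. The members were chosen with earlier results of these data known, and all genes tested were not matched to them by level. The difference in shares is therefore a description and no test of the pathway. The median log2 fold change of the members was -0.39 in MYO5BΔIEC and -0.33 in MYO5B(G519R), beside -0.011 and -0.052 over all genes tested. Both models were set against the same 4 control cultures, so their agreement is not independent.

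The genes called lower in both models were those for the pyruvate carrier (Mpc1 and Mpc2), 3 of the pyruvate dehydrogenase subunits (Pdha1, Pdhb and Dld), all 3 subunits of NAD-dependent isocitrate dehydrogenase (Idh3a, Idh3b and Idh3g), 2 succinyl-CoA ligase subunits (Suclg1 and Sucla2) and fumarase (Fh1). The 5 called higher in both were Pcx, Cs, Ogdh, Gpt and Slc25a10. Pdhx and Suclg2 were called lower in MYO5BΔIEC alone and Mdh1 in MYO5B(G519R) alone. A direct comparison of the 2 models called none of the 31 genes (background 0.00557%, which is 1 gene of 17943). The other 12 of the 31 genes were called in neither model.

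Without control culture 1, 16 members were lower and 8 higher in MYO5BΔIEC (background 20.8% and 21.2%), and 15 lower and 9 higher in MYO5B(G519R) (background 22.1% and 24.0%). All 35 calls remained, and those added included Idh1 as lower and Got1, Got2 and Glud1 as higher in both models. Control culture 1 lay above the range of the other 3 controls for 10 genes, below it for 17 and inside it for 4, and for 9 of the genes outside that range its level was within the range of MYO5BΔIEC enteroids. The levels of 11 members in MYO5BΔIEC were below all 4 controls and those of 6 were above all 4, where 26.5% of all genes tested had groups that did not overlap. In MYO5B(G519R) the counts were 8 and 8, with 27.1% of all genes. With any 1 of the 8 cultures left out, 7 of the 18 calls in MYO5BΔIEC and 9 of the 17 in MYO5B(G519R) remained in every fit, and each of the others was lost in at least 1. Bulk RNA cannot tell fewer cells of a type from less RNA per cell. Proliferation genes were lower in MYO5BΔIEC for 5 of 8 genes and in MYO5B(G519R) for 4 of 8, with a summed level of 1748 to 2103 CPM in control, 1173 to 1597 CPM in MYO5BΔIEC and 1480 to 1924 CPM in MYO5B(G519R) enteroids. Stem cell markers summed to 3818 to 7004 CPM in control, above the 1819 to 3068 CPM of MYO5BΔIEC and the 2183 to 3658 CPM of MYO5B(G519R), although Olfm4 was the 1 gene of the 6 that was called, lower in both (-2.26 (adjusted p = 0.00896) and -1.63 (adjusted p = 0.0174)). Of the 7 epithelial markers, 4 were higher in MYO5BΔIEC and 3 in MYO5B(G519R), among them Vil1, the gene of the brush border protein villin (1.08 (adjusted p = 0.00380) and 0.90 (adjusted p = 0.00622)). The 8 secretory markers summed to 2911 CPM in control culture 1 and 4841 to 5685 CPM in controls 2 to 4. In MYO5BΔIEC they summed to 3056 to 4175 CPM and in MYO5B(G519R) to 2863 to 3588 CPM. Of these 8 genes, 2 were called higher and 1 lower in MYO5BΔIEC, and 1 higher and 2 lower in MYO5B(G519R). Enterocyte markers summed to 6852 to 12860 CPM in MYO5BΔIEC and 6174 to 9330 CPM in MYO5B(G519R). Of the 10 enterocyte genes, 2 were called higher and 0 lower in MYO5BΔIEC, and 1 higher and 1 lower in MYO5B(G519R). Their median log2 fold change was 0.34 and -0.066, so the sums do not describe each marker. The part of all these markers in the members' differences was not tested.

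**Figure D1:**
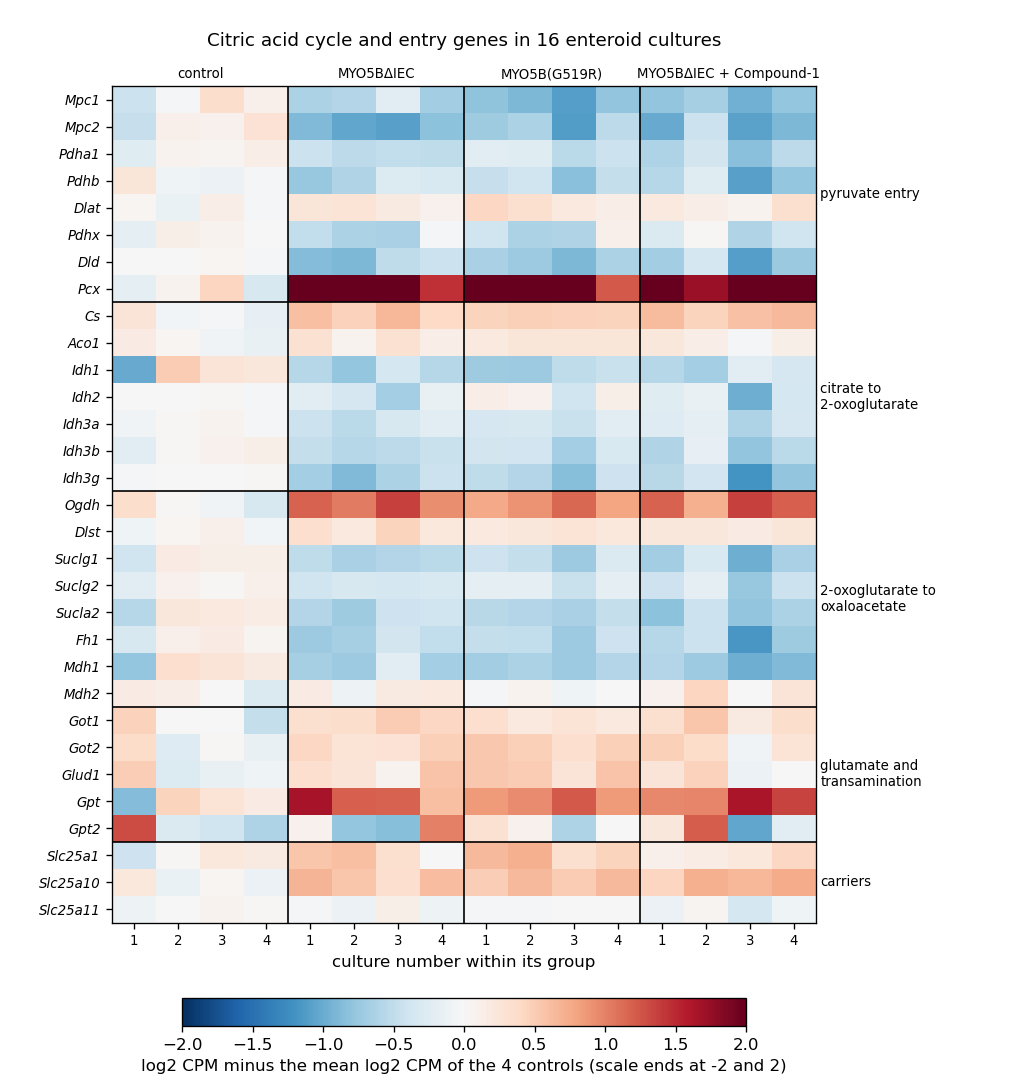
Each square is the log2 CPM of 1 member (rows, grouped by role) in 1 of 16 cultures (columns, 4 per group) minus the mean log2 CPM of the 4 controls for that gene, in blue where lower and red where higher, with the colour scale ending at -2 and 2. Pcx, Ogdh and Gpt stand out in red in all 12 cultures other than controls, most genes of pyruvate entry and of the Idh3 and succinyl-CoA ligase steps are blue there, and control culture 1 departs from controls 2 to 4 in Idh1, Mdh1, Gpt and Gpt2.

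The summed reads of the 31 genes varied little between groups, while single genes moved in opposite directions. Together they made up 0.613% ± 0.0238 (SD, n = 4) of all control counts. The share was 0.654% ± 0.0190 for MYO5BΔIEC, 0.639% ± 0.0175 for MYO5B(G519R) and 0.621% ± 0.0298 for Compound-1-treated enteroids, and the ranges of the 4 groups overlapped. Between genes, levels are compared per length, as the FPKM that the authors made. On that scale Mdh1 (233 ± 68.8 FPKM in control), Mdh2 (220.3 ± 29.8 FPKM) and Idh1 (185 ± 68.9 FPKM) were the highest members and Pcx the lowest (2.90 ± 0.696 FPKM). The ranges over the 4 controls overlapped, at 131 to 282 FPKM for Mdh1, 179 to 245 FPKM for Mdh2 and 85.6 to 245 FPKM for Idh1. Such ranges do not measure the difference between genes within a culture. In MYO5BΔIEC enteroids Pcx reached 14.5 ± 4.97 FPKM and Ogdh 73.1 ± 10.5 FPKM, from 34.2 ± 6.68 FPKM in control.

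Pyruvate carboxylase was higher, whereas of the 5 listed subunits of the pyruvate dehydrogenase complex, the alternative fate of mitochondrial pyruvate, 4 were lower in MYO5BΔIEC and 3 in MYO5B(G519R). Pcx (ENSMUSG00000024892, chromosome 19, 4510472 to 4621752, GRCm38) encodes pyruvate carboxylase, which makes oxaloacetate. Its level was 11.5, 13.8, 17.7 and 10.5 CPM in control, 72.9, 90.5, 71.6 and 36.2 CPM in MYO5BΔIEC and 56.7, 70.0, 93.2 and 30.6 CPM in MYO5B(G519R) enteroids. The lowest culture of either model, at 30.6 CPM, was above the highest control, although culture 4 of both models was well below the other 3. Relative to control, the log2 fold change was 2.29 ± 0.28 (95% interval 1.68 to 2.90, adjusted p = 0.00142) in MYO5BΔIEC, a 4.89-fold higher level, and 2.15 ± 0.32 (95% interval 1.44 to 2.85, adjusted p = 0.00246) in MYO5B(G519R), a 4.43-fold higher level. Pcx was called in both models whichever culture was left out, with adjusted p values of at most 0.00850 and 0.0113. Lrfn4 lies within Pcx on the opposite strand and shares none of its exon bases, and its log2 fold change was 0.50 (adjusted p = 0.0966) in MYO5BΔIEC and 0.75 (adjusted p = 0.00272) in MYO5B(G519R).

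Dihydrolipoamide dehydrogenase, encoded by Dld (ENSMUSG00000020664, chromosome 12, 31331277 to 31351453, GRCm38), is the subunit that the pyruvate and 2-oxoglutarate dehydrogenase complexes share. Its level in the controls was 278, 281, 287 and 275 CPM and control culture 1 lay inside the narrow range of the others. In MYO5BΔIEC it was 154, 151, 197 and 208 CPM and in MYO5B(G519R) 179, 169.5, 149.8 and 181 CPM. All 8 model cultures lay below all 4 controls. The log2 fold change was -0.71 ± 0.15 (95% interval -1.04 to -0.38, adjusted p = 0.00680) in MYO5BΔIEC and -0.81 ± 0.11 (95% interval -1.04 to -0.57, adjusted p = 0.00196) in MYO5B(G519R), and both calls remained with each culture left out.

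Mpc2, which encodes 1 of the 2 subunits of the mitochondrial pyruvate carrier, was at 67.7, 100.0, 98.8 and 114 CPM in control, 50.9, 45.2, 44.0 and 52.7 CPM in MYO5BΔIEC and 57.3, 60.2, 43.0 and 64.7 CPM in MYO5B(G519R) enteroids. The groups did not overlap, and control culture 1 was the control nearest to the models. That gave a log2 fold change of -1.04 ± 0.17 (95% interval -1.41 to -0.66, adjusted p = 0.00267) and -0.84 ± 0.18 (95% interval -1.25 to -0.44, adjusted p = 0.00886) in the 2 models. For Mpc1, the other subunit, the log2 fold change was -0.60 ± 0.20 (adjusted p = 0.0429) and -1.005 ± 0.17 (adjusted p = 0.00411), from 17.1 to 29.5 CPM in control to 14.3 to 19.9 and 10.8 to 13.4 CPM in the models. The call in MYO5BΔIEC held in 2 of 8 fits with 1 culture left out and was lost once the trend of counts with gene length was removed, at -0.38 (adjusted p = 0.141). A pseudogene with more counts than Mpc1, Mpc1-ps, was also lower (log2 fold change -0.81 (adjusted p = 0.0144) and -1.09 (adjusted p = 0.00222)), so the division of reads between the copies makes the values of Mpc1 uncertain.

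Of the pyruvate dehydrogenase subunits, Pdha1 and Pdhb encode the E1 heterotetramer that decarboxylates pyruvate, Dlat the E2 acetyltransferase core and Pdhx the protein that binds E3 to it. Pdhb was at 219, 175, 172 and 182 CPM in control, 109, 123, 153 and 150.5 CPM in MYO5BΔIEC and 134, 140.3, 104 and 133 CPM in MYO5B(G519R), and Pdha1 at 279 to 361, 229 to 244 and 228 to 286 CPM. Both subunits of E1 were below all controls in MYO5BΔIEC, and in MYO5B(G519R) Pdha1 overlapped with control culture 1. The log2 fold changes of Pdhb were -0.53 ± 0.15 (adjusted p = 0.0272) and -0.63 ± 0.13 (adjusted p = 0.00700), and those of Pdha1 -0.55 ± 0.14 (adjusted p = 0.0147) and -0.44 ± 0.13 (adjusted p = 0.0357). Pdhx was lower in MYO5BΔIEC, by a log2 fold change of -0.49 ± 0.16 (adjusted p = 0.0451), and had a value of -0.44 ± 0.17 (adjusted p = 0.0810) in MYO5B(G519R), where culture 4 was at 41.6 CPM and the others at 24.9 to 29.3 CPM. With 1 culture left out, the Pdha1 call held in 6 of 8 fits for MYO5BΔIEC and in 1 of 8 for MYO5B(G519R). For Pdhb the call held in 3 of 8 fits for MYO5BΔIEC and in all 8 for MYO5B(G519R). The Pdhx call in MYO5BΔIEC held in 2 of 8. The E2 core gene Dlat was not called in either model, and its intervals ran from -0.12 to 0.41 in MYO5BΔIEC and from -0.066 to 0.42 in MYO5B(G519R). Altogether 6 of the 8 genes of pyruvate entry were lower and 1 higher in MYO5BΔIEC, and 5 lower and 1 higher in MYO5B(G519R).

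**Figure D2:**
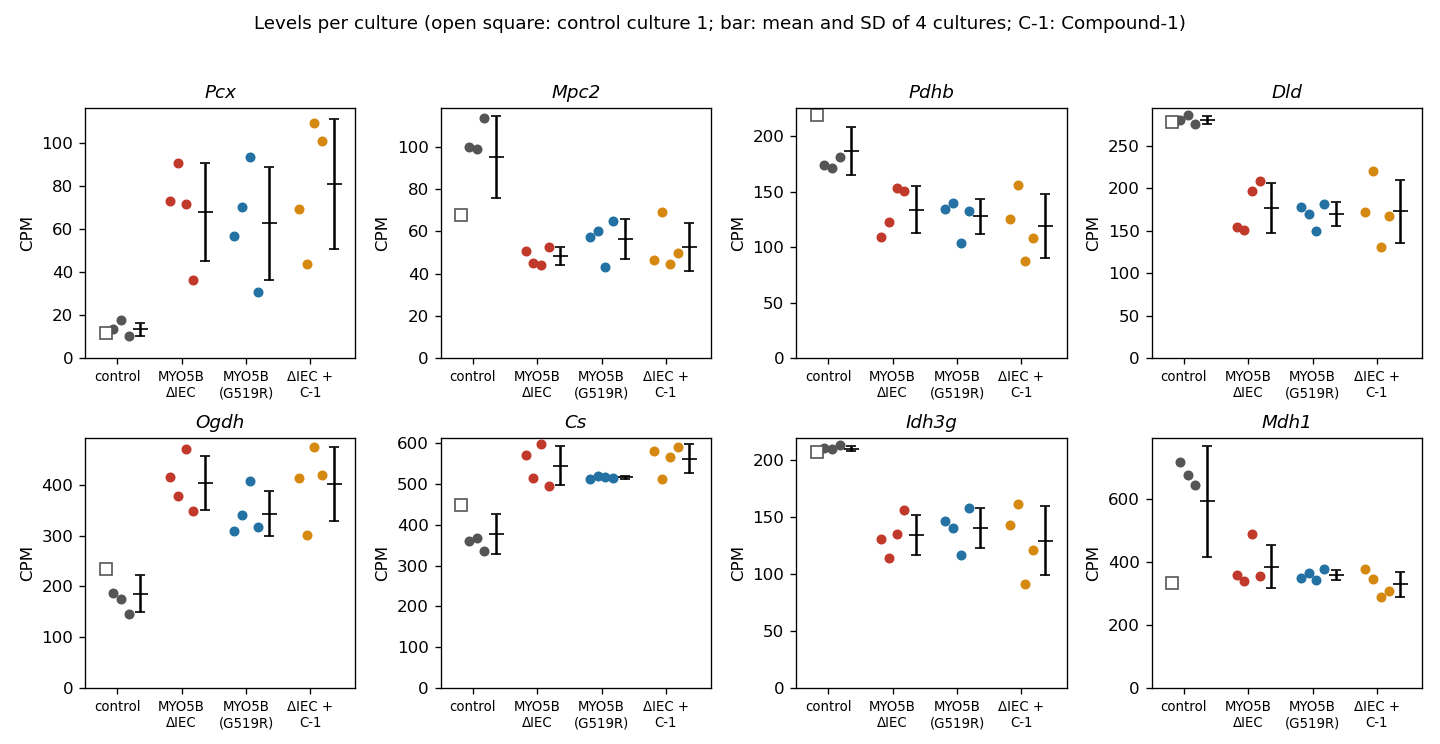
CPM of 8 members in each culture (points, axis from 0), with control culture 1 as an open square and the mean and SD of the 4 cultures of each group as a black bar. Pcx, Ogdh and Cs were higher in all 8 vehicle-treated MYO5BΔIEC and MYO5B(G519R) cultures than in any control, Mpc2, Pdhb, Dld and Idh3g were lower there, and Mdh1 of control culture 1 lay below those 8 cultures while controls 2 to 4 lay above them.

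At the head of the cycle, Cs, which encodes citrate synthase, was higher in both models. It was at 448, 359.8, 367 and 335 CPM in control, 570.4, 514, 597 and 494 CPM in MYO5BΔIEC and 512, 519.6, 517 and 513 CPM in MYO5B(G519R) enteroids. Control culture 1 was the highest control, and no model culture was below it. The log2 fold change of 0.48 ± 0.15 (adjusted p = 0.0351) and 0.37 ± 0.12 (adjusted p = 0.0490) was small, and with 1 culture left out it was called in 2 of 8 fits for MYO5BΔIEC and in 1 of 8 for MYO5B(G519R), its value remaining positive. Once the trend of counts with gene length had been taken out, Cs was no longer called in either model (adjusted p = 0.0556 and 0.0670).

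The 3 subunits of IDH3, the NAD-dependent isocitrate dehydrogenase of the cycle, fell together. Idh3g, a regulatory subunit, was at 207, 210.3, 209.5 and 213 CPM in control, 131, 114, 135 and 156 CPM in MYO5BΔIEC and 147, 141, 117 and 158 CPM in MYO5B(G519R). The 4 controls lay close together, and the highest model culture, at 158 CPM, was well below them. Its log2 fold change was -0.70 ± 0.13 (95% interval -0.99 to -0.41, adjusted p = 0.00444) and -0.67 ± 0.11 (95% interval -0.92 to -0.41, adjusted p = 0.00382). The values of Idh3b were -0.56 ± 0.14 (adjusted p = 0.0128) and -0.51 ± 0.13 (adjusted p = 0.0178), and those of the catalytic subunit Idh3a -0.43 ± 0.13 (adjusted p = 0.0335) and -0.41 ± 0.10 (adjusted p = 0.0174), and neither overlapped with control in either model. In MYO5BΔIEC the Idh3a call held in 3 of 8 fits with 1 culture left out and the Idh3b call in all 8. In MYO5B(G519R) neither of these calls held in all 8. Idh3b shares 5 exon bases with its neighbour Nop56.

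The NADP-dependent isocitrate dehydrogenases were not called by the main test with all controls. Cytosolic Idh1 was at 236, 676, 568 and 552 CPM in control, 317, 277, 370.3 and 318 CPM in MYO5BΔIEC and 288, 287, 332 and 346 CPM in MYO5B(G519R) enteroids. Control culture 1 was below every model culture while controls 2 to 4 were above all of them. With all 4 controls the log2 fold change was -0.72 ± 0.28 (adjusted p = 0.0800) and -0.78 ± 0.28 (adjusted p = 0.0605), and without control culture 1 it was -0.96 (adjusted p = 0.000331) and -0.995 (adjusted p = 0.000103). Mitochondrial Idh2, at 147 to 150.3 CPM in control, had a log2 fold change of -0.39 ± 0.13 (adjusted p = 0.0523) in MYO5BΔIEC, where all 4 cultures were below the controls, and of -0.080 ± 0.13 (adjusted p = 0.687) in MYO5B(G519R). By DESeq2, Idh1 was called lower in both models (log2 fold change -0.70 and -0.75) and Idh2 in MYO5BΔIEC (-0.38 (adjusted p = 0.0308)). The fit of all 4 groups also called Idh1 in both models. In MYO5BΔIEC, Idh1 was not called with the length trend removed (adjusted p = 0.112) or with the replicate block (adjusted p = 0.149), both by edgeR. The Aco1 values, for the cytosolic aconitase that doubles as an iron-sensing RNA-binding protein, were 0.15 ± 0.13 (adjusted p = 0.420) and 0.14 ± 0.10 (adjusted p = 0.348).

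The 2-oxoglutarate dehydrogenase complex was divided. Ogdh (ENSMUSG00000020456, chromosome 11, 6291633 to 6356642, GRCm38) encodes its E1 subunit, which decarboxylates 2-oxoglutarate, Dlst its E2 core, and Dld its E3. The level of Ogdh was 234, 187, 175 and 147 CPM in control, 416, 377, 471 and 347 CPM in MYO5BΔIEC and 309, 340.3, 406 and 316 CPM in MYO5B(G519R). Every model culture was above every control, and control culture 1 was the highest control. The log2 fold change was 1.07 ± 0.17 (95% interval 0.69 to 1.45, adjusted p = 0.00243) and 0.81 ± 0.16 (95% interval 0.45 to 1.16, adjusted p = 0.00651), and neither call was lost with any culture left out. Dlst was not called, with values of 0.25 ± 0.13 (adjusted p = 0.188) and 0.14 ± 0.10 (adjusted p = 0.343), although its levels, 215 to 244 CPM in control, were 260.0 to 307 and 259 to 275 CPM in the models and did not overlap with control.

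The promoters of Ogdh and Dld are shown because these partners of 1 complex moved in opposite directions. Both sequences are the 250 bases before a transcription start of the RefSeq annotation of GRCm38.p6, written 5′ to 3′ on the gene's strand. The first, at chr11:6291347-6291596 (plus strand), holds 57.2% G and C and 18 CG pairs, and its capitals mark the letters TGACGTCA, the palindrome known as the CREB element, at -51 to -44 from the start. The second, at chr12:31351472-31351721 (minus strand), holds 43.6% G and C, 10 CG pairs and none of the motifs searched.
Ogdh: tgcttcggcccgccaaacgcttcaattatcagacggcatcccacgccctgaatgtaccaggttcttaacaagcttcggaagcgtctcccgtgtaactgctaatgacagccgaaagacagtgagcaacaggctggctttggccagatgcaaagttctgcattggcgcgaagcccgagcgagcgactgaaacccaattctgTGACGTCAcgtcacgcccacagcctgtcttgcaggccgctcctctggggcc
Dld: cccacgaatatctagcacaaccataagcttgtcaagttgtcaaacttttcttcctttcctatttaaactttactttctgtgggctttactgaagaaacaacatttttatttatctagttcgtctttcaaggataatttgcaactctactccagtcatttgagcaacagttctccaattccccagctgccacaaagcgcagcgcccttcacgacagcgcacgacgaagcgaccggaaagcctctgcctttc
Neither window overlaps an annotated exon. TGACGTCA was added to the search after the Ogdh sequence had been seen, and on either strand it was present in 1.79% of all 32851 promoter windows of the table, and in windows of Ogdh and Mdh2 among the 29 members that matched. The other motifs searched on both strands were TCAAGGTCA (ESRRA, 0.423% of all windows and no member), GCGCATGCG (NRF1, 1.75% and Ogdh alone, in 2 of its 6 windows and not in the bases shown), CCGGAAGT (GABPA, 3.89% and Dlst alone) and TCACCCCAC (SREBF, 0.551% and no member). Idh3a and Gpt had no entry under these names. A match describes letters in a window and is not a binding site.

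Succinyl-CoA ligase, which makes GTP or ATP from succinyl-CoA, pairs the α subunit Suclg1 with the β subunit Suclg2 (GTP-forming) or Sucla2 (ATP-forming). Suclg1 was at 205, 303, 292 and 294 CPM in control, 189, 173, 180.3 and 185 CPM in MYO5BΔIEC and 203, 194, 163 and 222 CPM in MYO5B(G519R). Controls 2 to 4 were above all model cultures, and control culture 1 was close to the models. On the log2 scale the difference was -0.64 ± 0.16 (adjusted p = 0.0133) and -0.57 ± 0.16 (adjusted p = 0.0246). Sucla2 was called lower in both models as well (-0.61 ± 0.19 (adjusted p = 0.0358) and -0.69 ± 0.17 (adjusted p = 0.0180)), from 111 to 194 CPM in control to 101 to 125 and 105 to 119 CPM, whereas Suclg2 was called in MYO5BΔIEC (-0.40 ± 0.13 (adjusted p = 0.0423)) and not in MYO5B(G519R) (-0.34 ± 0.12 (adjusted p = 0.0587)). In MYO5BΔIEC either call held in 1 of 8 fits with 1 culture left out, the one without control culture 1, and Sucla2 was called in 3 of 8 in MYO5B(G519R). Suclg2 in MYO5B(G519R) was called by DESeq2, with all 4 groups in 1 fit and with the length trend removed. For Fh1, which encodes the fumarase of mitochondria and cytosol, the level was 186, 251, 262 and 242 CPM in control, 142, 148, 181 and 166 CPM in MYO5BΔIEC and 168, 166, 142 and 175 CPM in MYO5B(G519R). The groups did not overlap, and the log2 fold change was -0.62 ± 0.16 (adjusted p = 0.0162) and -0.62 ± 0.14 (adjusted p = 0.0101).

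The malate dehydrogenases complete the cycle in mitochondria (Mdh2) and shuttle reducing equivalents from the cytosol (Mdh1). Mdh1 was at 334, 718, 676 and 643 CPM in control, 358, 342, 488 and 356 CPM in MYO5BΔIEC and 349.7, 366, 342 and 377 CPM in MYO5B(G519R). Control culture 1 was just below the lowest culture of the models, and the other 3 controls were above all of them. The log2 fold change of -0.67 ± 0.25 (adjusted p = 0.0645) in MYO5BΔIEC was not called and that of -0.81 ± 0.22 (adjusted p = 0.0235) in MYO5B(G519R) was, and without control culture 1 both passed, at -0.88 (adjusted p = 0.000964) and -0.98 (adjusted p = 4.67e-05). In MYO5BΔIEC with all controls, Mdh1 was also called by DESeq2 (adjusted p = 0.0342) and with all 4 groups in 1 fit. By edgeR it was not called there with the length trend removed (adjusted p = 0.110) or with the replicate block (adjusted p = 0.0903). Mdh2 had values near 0, with 95% intervals of -0.29 to 0.40 and -0.41 to 0.19.

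**Figure D3:**
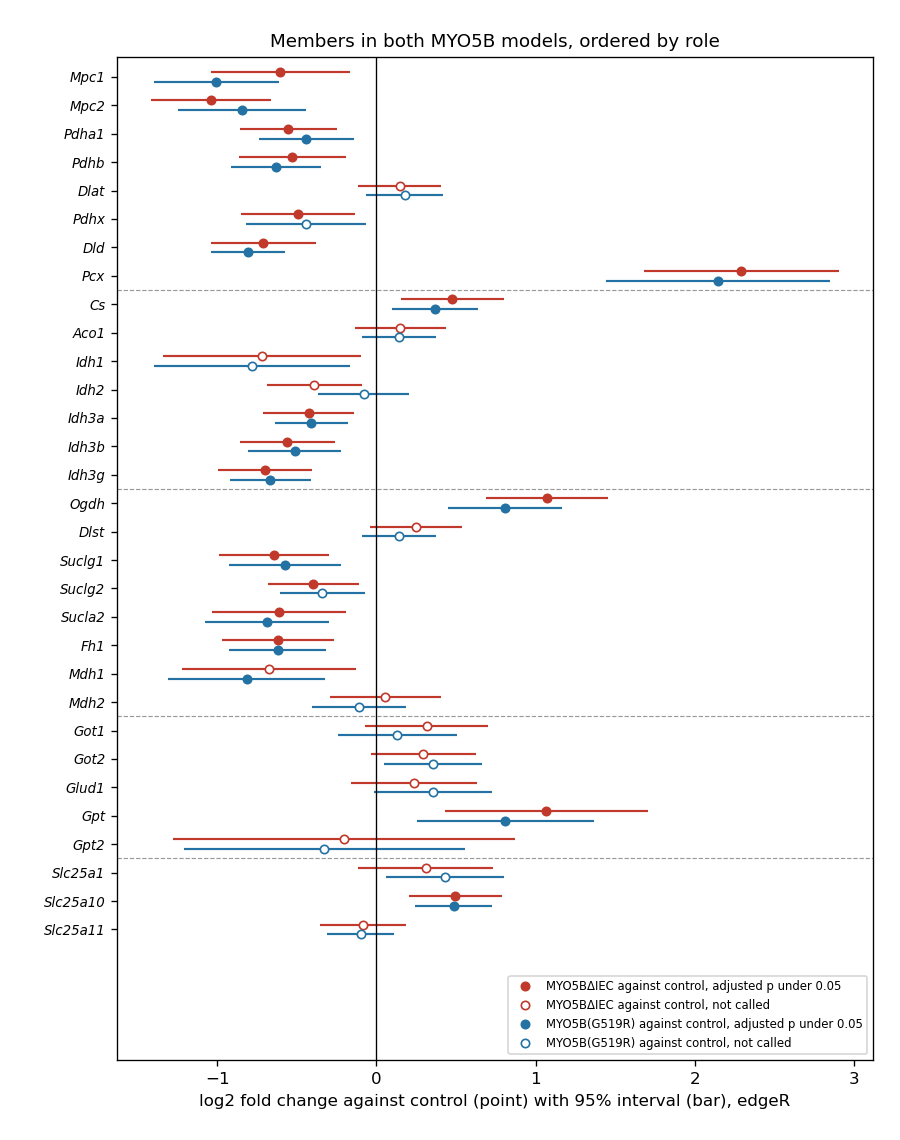
Log2 fold change against control (points) with its 95% interval from edgeR (bars) for the 31 members in MYO5BΔIEC (red) and MYO5B(G519R) (blue), ordered by role and filled where the adjusted p was under 0.05. Pcx lies farthest to the right at 2.29 and 2.15, most other genes of pyruvate entry lie between -1.04 and -0.44, and the 3 Idh3 subunits lie to the left of 0 while Ogdh and Gpt lie to the right.

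Among the glutamate and transamination genes, none was lower and only Gpt was called with all controls. Gpt encodes the alanine transaminase that exchanges the amino group between alanine and 2-oxoglutarate in the cytosol. It was at 21.9, 54.4, 48.1 and 44.6 CPM in control, 126, 91.6, 90.4 and 60.8 CPM in MYO5BΔIEC and 71.8, 76.7, 93.7 and 72.4 CPM in MYO5B(G519R) enteroids. Every model culture was above every control, and control culture 1 was the lowest. The log2 fold change was 1.07 ± 0.29 (95% interval 0.43 to 1.70, adjusted p = 0.0204) and 0.81 ± 0.25 (95% interval 0.26 to 1.36, adjusted p = 0.0374), and without control culture 1, with smaller values, it was 0.85 and 0.62 (adjusted p = 0.00681 and 0.00176).

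Glud1, which encodes the glutamate dehydrogenase that feeds 2-oxoglutarate to the cycle, was at 214, 126, 137 and 143 CPM in control, 191, 181, 160.2 and 225 CPM in MYO5BΔIEC and 219, 215, 181 and 225 CPM in MYO5B(G519R). Controls 2 to 4 were below all model cultures and control culture 1 was among them. Its log2 fold change was 0.24 ± 0.18 (adjusted p = 0.362) and 0.36 ± 0.17 (adjusted p = 0.139) with all controls, and 0.42 and 0.57 without control culture 1 (adjusted p = 0.0223 and 0.00107). The aspartate transaminases behaved alike in this respect. For mitochondrial Got2 the value went from 0.29 and 0.36 to 0.42 and 0.51 when control culture 1 was left out, and for cytosolic Got1 from 0.31 and 0.13 to 0.48 and 0.33, all 4 of the latter being called. Mitochondrial alanine transaminase, Gpt2, was at 69.1 CPM in control culture 1 and 18.4 to 23.1 CPM in controls 2 to 4, and its log2 fold change turned from -0.20 to 0.43 in MYO5BΔIEC and from -0.33 to 0.34 in MYO5B(G519R) without that culture, none of these being called.

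Of the carriers, Slc25a10 exchanges dicarboxylates such as malate for phosphate and was higher in both models. It was at 128, 101, 114 and 102 CPM in control, 179, 163, 140.1 and 171 CPM in MYO5BΔIEC and 157, 174, 157 and 173 CPM in MYO5B(G519R), without overlap. Against control the log2 fold change was 0.50 ± 0.13 (adjusted p = 0.0186) and 0.48 ± 0.11 (adjusted p = 0.0109). With 1 culture left out, the Slc25a10 call held in 3 of 8 fits for MYO5BΔIEC and in all 8 for MYO5B(G519R). The citrate carrier Slc25a1, which exports citrate for lipid synthesis, had values of 0.31 ± 0.19 (adjusted p = 0.263) and 0.43 ± 0.17 (adjusted p = 0.0812) and was not called. In MYO5B(G519R) its levels, 332 to 435 CPM, lay above the 201 to 309.5 CPM of control, and it was called there by DESeq2 (adjusted p = 0.0296), by edgeR without control culture 1 (adjusted p = 0.0399) and with the trend on gene length removed (adjusted p = 0.00861), the last of which also called it in MYO5BΔIEC (adjusted p = 0.0441). The 2-oxoglutarate carrier Slc25a11, part of the malate-aspartate shuttle, had 95% intervals of -0.36 to 0.19 in MYO5BΔIEC and -0.31 to 0.11 in MYO5B(G519R).

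A ratio of 2 genes within a culture does not depend on library scaling, and such ratios of counts were described for 6 pairs of related enzymes and, after its values had been seen, for Ogdh and Dld. The Ogdh/Dld count ratio was 0.533 to 0.841 in control. For MYO5BΔIEC it was 1.67 to 2.70, for MYO5B(G519R) 1.73 to 2.71 and for Compound-1-treated enteroids 1.36 to 3.61. The lowest of these 12 cultures was above the highest control. That separation had to follow, because in all 12 Ogdh lay above and Dld below every control, so it adds no further evidence. The Pcx/Pdha1 count ratio was 0.0290 to 0.0517 in control, again below the 0.156 to 0.395 of MYO5BΔIEC, the 0.124 to 0.409 of MYO5B(G519R) and the 0.169 to 0.589 of treated cultures. This separation also had to follow, from the ranges of Pcx and Pdha1, and adds no further evidence. The Mdh2/Mdh1 ratio was 2.59 in control culture 1 and 0.986 to 1.18 in controls 2 to 4, and it was 1.80 to 2.48 in MYO5BΔIEC and 2.03 to 2.22 in MYO5B(G519R). Controls 2 to 4 were below every culture of both models, and control culture 1 was above all of them. For Suclg2/Sucla2, Idh2/Idh1, Got2/Got1 and Gpt2/Gpt the range of the controls overlapped with that of MYO5BΔIEC enteroids.

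**Figure D4:**
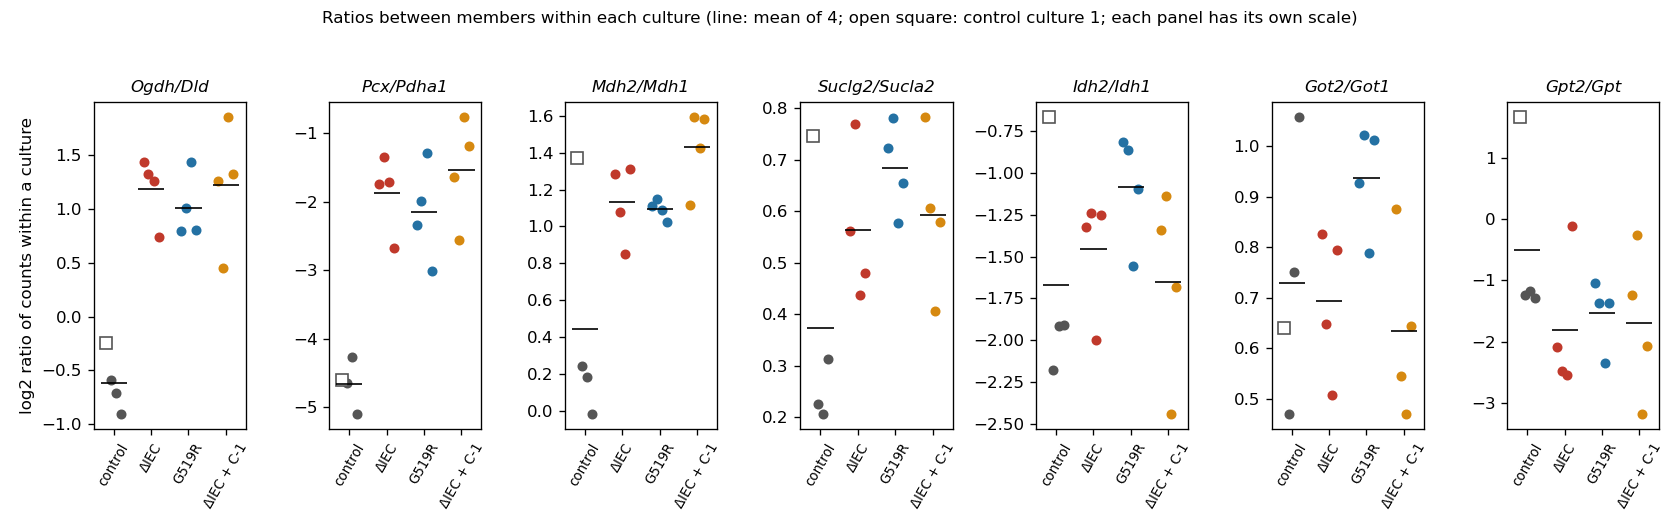
Log2 ratio of the counts of 2 members within each culture (points, 4 per group, each panel with its own vertical scale), with the group mean as a line and control culture 1 as an open square. Ogdh/Dld and Pcx/Pdha1 separate the controls from all other cultures, while in Mdh2/Mdh1 control culture 1, at a ratio of 2.59, lies above both models and controls 2 to 4 lie below them.

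With 4 cultures against 4, no difference between Compound-1-treated and vehicle-treated MYO5BΔIEC enteroids was detected in these genes. By edgeR none of the 31 was called (background 0.00% of 18037 genes) and none had an unadjusted p under 0.05, where 1355 genes of all tested did. DESeq2, which called 48 genes higher and 43 lower over the whole table, called none of the members. Their log2 fold changes ranged from -0.30 for Mpc1 to 0.22 for Pcx, with a median of -0.076 beside 0.0034 over all genes tested. The 95% interval lay within a 2-fold change in either direction for 30 of the 31 genes, the exception being Gpt2 (-0.87 to 1.24). No member had groups that did not overlap, where 2.82% of all genes tested did. Pcx was at 69.4, 43.6, 109 and 101 CPM, Ogdh at 414, 300.4, 473 and 419.5 CPM, Dld at 172, 220.2, 131 and 167 CPM and Mpc2 at 46.5, 69.2, 44.7 and 49.9 CPM in the treated cultures, and the 95% interval of treated against vehicle was -0.46 to 0.90 for Pcx, -0.41 to 0.35 for Ogdh, -0.46 to 0.33 for Dld and -0.24 to 0.44 for Mpc2. These intervals do not show that the compound had no effect on a gene.

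Compared with control, treated enteroids had 12 members lower and 5 higher (background 13.7% and 15.7%), and without control culture 1 they had 14 lower and 6 higher (background 19.2% and 22.9%). The 5 called higher in both models, Pcx, Cs, Ogdh, Gpt and Slc25a10, were also called here, as were 10 of the 11 called lower in both, all but Idh3a (-0.40 ± 0.14 (adjusted p = 0.0553)). The values for Pcx (2.54 ± 0.30 (adjusted p = 0.00398)) and Ogdh (1.07 ± 0.20 (adjusted p = 0.00556)) stood beside 2.29 and 1.07 in vehicle-treated enteroids. Between the models, the log2 fold changes of MYO5B(G519R) against vehicle-treated MYO5BΔIEC ranged from -0.40 for Mpc1, the 1 member with an unadjusted p under 0.05, to 0.32, and all 31 intervals lay within a 2-fold change in either direction.

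**Figure D5:**
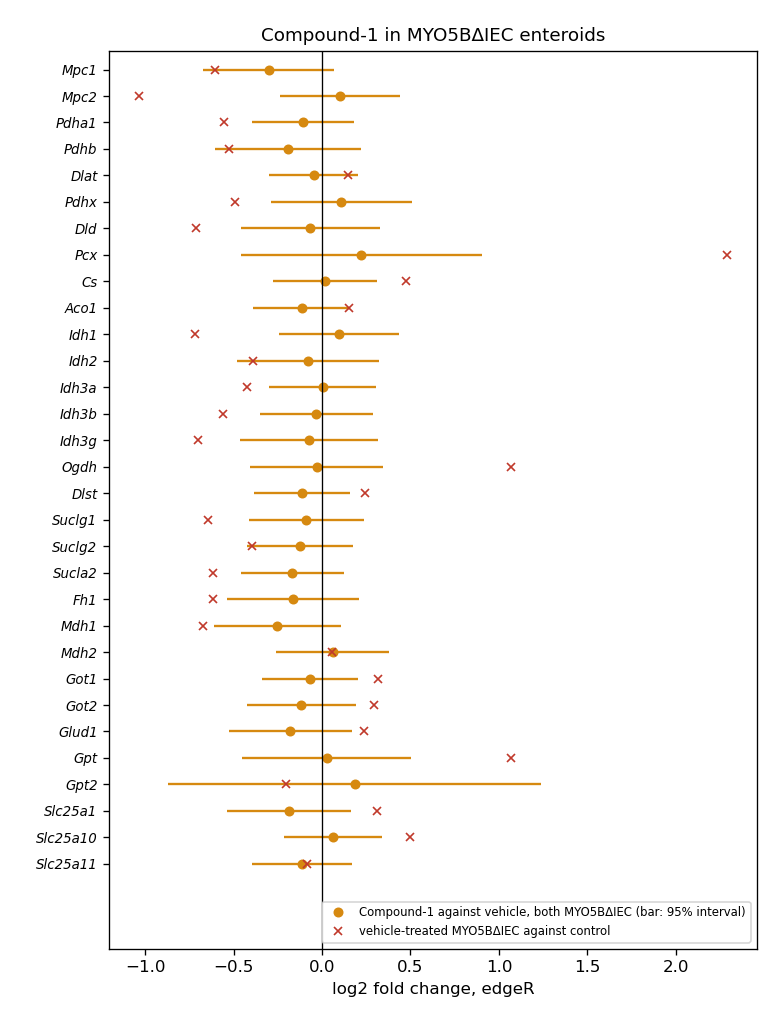
Log2 fold change of Compound-1-treated against vehicle-treated MYO5BΔIEC enteroids (orange points) with 95% intervals (bars) for the 31 members, and the log2 fold change of vehicle-treated MYO5BΔIEC against control (red crosses). The orange points stay between -0.30 and 0.22 also for the genes with crosses farthest from 0, Pcx at 2.29 and Mpc2 at -1.04.

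Genes next to the set were followed as 6 lists, of which 10 of 57 genes were called lower and 4 higher in MYO5BΔIEC, and 11 and 4 in MYO5B(G519R). The shares lower, 17.5% and 19.3%, were near the 13.8% and 13.7% of all genes tested, and the share higher, 7.02% in both, was below the 13.5% and 13.1%. A single value beside a gene of these lists is its log2 fold change in MYO5BΔIEC against control. The step between the succinyl-CoA ligases and fumarase is succinate dehydrogenase, where Sdhb, its iron-sulfur subunit, was lower in both models (log2 fold change -0.86 ± 0.18 (adjusted p = 0.00716) and -0.86 ± 0.17 (adjusted p = 0.00678)). Sdha (-0.18 (adjusted p = 0.545) and -0.082 (adjusted p = 0.787)), Sdhc (0.016 (adjusted p = 0.952) and 0.053 (adjusted p = 0.806)) and Sdhd (-0.72 (adjusted p = 0.0732) and -0.58 (adjusted p = 0.136)) were not called. The list of 9 genes had 3 called lower in each model, among them the assembly factor Sdhaf3 (-1.01 (adjusted p = 0.00338)).

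Of 7 regulators of pyruvate dehydrogenase, the kinase Pdk2 was higher in MYO5BΔIEC (0.71 (adjusted p = 0.0293)), none was called in MYO5B(G519R), and Pdk4 had values of 0.88 (adjusted p = 0.181) and 0.37 (adjusted p = 0.578). The lipoyl group that Dlat, Dlst and Pdhx carry is made and attached by 6 listed genes, of which Lias (-0.47 (adjusted p = 0.0321)) and Lipt1 (-0.97 (adjusted p = 0.00385)) were lower in both models. In glutamine and glutamate supply, 1 of 10 genes was called, the glutamate carrier Slc25a22, which was higher (0.74 (adjusted p = 0.0230) and 0.65 (adjusted p = 0.0287)). Among 13 genes of malic enzymes and exits from the cycle, Ogdhl, which encodes a relative of OGDH, was higher (2.13 (adjusted p = 0.00541)) and malic enzyme 2, Me2, was lower (-0.85 (adjusted p = 0.00338)), with 2 genes higher and 2 lower in MYO5B(G519R). Of 12 regulators of mitochondrial genes, 4 were lower and 1 higher in each model. The coactivator gene Ppargc1b was the one that was higher (0.65 (adjusted p = 0.0446)), and Esrrg (-1.06 (adjusted p = 0.0235)) and the mitochondrial transcription factor Tfam (-0.93 (adjusted p = 0.00207)) had the most negative values.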

How the data were processed

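RNA sequencing counts of 16 mouse enteroid cultures were used as deposited. Per the labels and the methods, libraries were made from poly-T-selected mRNA by a protocol that does not mark strand, STAR 2.5 was run by the authors on paired-end reads with GRCm38 as reference, and HTSeq 0.6.1 made the deposited counts per gene. The submitters' processing notes also name TopHat and DESeq2. The deposited FPKM were made by the authors from these counts with the length of each gene and 1 size for each library. How reads with several matches were counted is not given in the sources used here. Pairs of groups were tested by edgeR 4.0.16 in R 4.3.3 (TMM scaling, a minimum of 10 counts in 2 or more of the 8 cultures, quasi-likelihood test, Benjamini-Hochberg adjustment over all genes tested, threshold 0.05). The test was checked on simulated counts. Per the study, the 4 cultures of a group came from 4 mice. Whether cultures of different groups shared a donor mouse is not stated in the sources used here. The main tests treated all cultures as independent. The members and the gene lists were chosen with earlier results of these data known. All 31 members are named, grouped by role. From each neighbouring list at most the 2 called genes with the most positive and the 2 with the most negative log2 fold change in MYO5BΔIEC are named, besides the succinate dehydrogenase subunits and Pdk4, and some genes of these lists are not reported here. Alternatives were DESeq2 1.42.0, its size factors in edgeR, no mitochondrially encoded genes, no filter, all 4 groups in 1 fit, a replicate block, removal of the trend on gene length and each culture left out. Promoters were read from a RefSeq table of GRCm38.p6, in which 29 members matched.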

Additional observations from a re-analysis of the deposited data

Results flagged for a closer look

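In 7 of 124 groups of 4 cultures, 1 culture stood so far from the other 3 that its gap, divided by the range of the group on the log2 scale, exceeded Dixon's 95% critical value for 4 samples. About 1 in 20 groups would be expected by chance if the groups were independent. They are not, because all genes were measured in the same 16 cultures, and whether this number is unusual was not tested. Control culture 1 accounted for 3 of them. It was the lowest control for Suclg1 (204.9 CPM against 292 to 303 CPM, gap ratio 0.903), for Sucla2 (110.9 CPM against 184 to 194 CPM, gap ratio 0.904) and for Mdh1 (334 CPM against 643 to 718 CPM, gap ratio 0.856). In MYO5BΔIEC enteroids, culture 3 was the highest for Mdh1 (488 CPM against 342 to 358 CPM, gap ratio 0.872) and culture 2 the lowest for Mdh2 (722 CPM against 870.1 to 884 CPM, gap ratio 0.919). In MYO5B(G519R) enteroids, culture 3 was the lowest for Idh2 (113 CPM against 158 to 164 CPM, gap ratio 0.905) and for Suclg2 (157 CPM against 187 to 189.8 CPM, gap ratio 0.910).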

How the results depend on the processing

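The 35 calls of members in the 2 models gave 525 values under the alternatives, of which 406 remained called in the same direction, 119 kept their direction without being called and none turned. DESeq2, its size factors, all 4 groups in 1 fit, leaving out mitochondrially encoded genes and leaving out control culture 1 kept all 35, whereas removing the trend on length lost 3, testing without a filter lost 6 and the replicate block lost 13. In no comparison did the deviations from the group means of all 4 same-numbered pairs correlate above 0.1, so the numbers were not taken to pair cultures. Of the 4 pairs, 1 did so in each comparison (r from -0.228 to 0.229) other than that of the 2 models, where 3 did (0.0687 to 0.571), 3 of 4 MYO5B(G519R) cultures correlated best with their own number, and the block raised the genes with an unadjusted p under 0.05 from 772 to 2532 and called no member. With this block MYO5BΔIEC had 7 members lower and 3 higher, beside 9.46% and 10.9% of all genes. With 1 culture left out, the members called ranged from 5 to 16 lower and 2 to 8 higher in MYO5BΔIEC, from 6 to 15 lower and 3 to 9 higher in MYO5B(G519R), and from 6 to 14 lower in treated enteroids against control. The share of all genes called in the same fits moved as well, from 7.98% to 20.8% lower and 8.45% to 21.2% higher in MYO5BΔIEC, from 7.99% to 22.1% and 8.22% to 24.0% in MYO5B(G519R), and from 6.80% to 19.2% lower in treated enteroids. The calls kept in all 8 such fits were Mpc2, Dld, Pcx, Idh3b, Idh3g, Ogdh and Suclg1 in MYO5BΔIEC, and Mpc1, Mpc2, Pdhb, Dld, Pcx, Idh3g, Ogdh, Fh1 and Slc25a10 in MYO5B(G519R). Leaving out control culture 1 gave 8 members higher in MYO5BΔIEC and 9 in MYO5B(G519R). The cause of these changes was not tested, and fits with 7 cultures have fewer samples.

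Of the 27 values not called, 29 of 405 alternatives were called in the same direction, 13 of these without control culture 1, and 9 turned without being called. Without control culture 1, Gpt2 turned to 0.43 in MYO5BΔIEC and 0.34 in MYO5B(G519R), and over all cultures left out in turn its values ran from -0.72 to 0.43 and from -0.52 to 0.34. With the trend on length removed, Slc25a11 turned to 0.12 and 0.062, and in MYO5B(G519R) Idh2 to 0.0039 and Dlst to -0.052. Without control culture 4, Mdh2 turned to -0.027 in MYO5BΔIEC and Got1 to -0.0029 in MYO5B(G519R), where leaving out each culture gave -0.0029 to 0.33 for Got1 and, turning without MYO5B(G519R) culture 3, -0.13 to 0.028 for Idh2. With mitochondrially encoded genes out of the total, the members took 0.673% of control reads, 0.690% for MYO5BΔIEC, 0.670% for MYO5B(G519R) and 0.653% for treated cultures.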

Other observations

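Single cultures differed across many members at once. In Compound-1-treated enteroids, culture 3 was the lowest of its group for 23 of the 31 genes and culture 2 the highest for 19, and in MYO5B(G519R) enteroids culture 3 was the lowest for 19 and culture 4 the highest for 15. Treated culture 3 had Idh3g at 91.3 CPM and Fh1 at 105 CPM, the lowest levels of either gene in the 16 cultures, and at the same time the highest Pcx (109 CPM) and Ogdh (473 CPM). MYO5B(G519R) culture 3 likewise had the highest Pcx (93.2 CPM) and Ogdh (406 CPM) of its group with the lowest Idh3g (117 CPM) and Fh1 (142 CPM).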
